A study of Mus musculus with 6 samples.

Results

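Long noncoding RNAs (lncRNAs) of the nucleus and of imprinted loci were examined in the lumbar spinal cord of mice given morphine. The members were 10 genes picked by symbol: the nuclear-body RNAs Malat1 and Neat1, the imprinted RNAs Meg3, Rian, Mirg, Kcnq1ot1 and Peg13, and the neural RNAs Miat, Snhg11 and Pantr1. All 10 were found among the 52513 genes of the expression table. The morphine group held 3 libraries from wild-type (WT) mice that had received morphine by the intrathecal route, 10 µg in a volume of 10 µL, over 7 days. The saline group held 3 libraries from WT mice given saline by the same route. Every library came from total RNA of segments L4 to L5. The library labels carry runs of numbers, with a shorter run for library 3 of each group, and their meaning is not given. The sources used here give neither age, strain and sex nor whether a library pooled several animals, so p-values measure the spread between these libraries only.

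LncRNAs are transcripts without a long open reading frame, and many stay in the nucleus. Malat1 gathers in nuclear speckles beside splicing factors, while the long form of Neat1 is the scaffold of paraspeckles, nuclear bodies that hold RNA-binding proteins. Imprinted lncRNAs are transcribed from the chromosome of one parent, and several of them lie beside or carry the control region that silences their protein-coding neighbours. Meg3 (also called Gtl2), Rian and Mirg are maternally expressed RNAs of the Dlk1-Dio3 locus, whose transcription unit also carries arrays of small RNAs, and they are abundant in neurons.

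Sequences that set these RNAs apart are printed first. Malat1 and the long form of Neat1 lack a usual poly(A) tail. Their 3′ ends are protected by a triple helix in which a pair of U-rich motifs clasp an A-rich tract. In both genes the U-rich motifs and the A-rich tract, in capitals, stand in the same order, here as DNA letters on the minus strand of mm10 (GENCODE M21 transcripts):
Malat1, chr19:5795982-5796091: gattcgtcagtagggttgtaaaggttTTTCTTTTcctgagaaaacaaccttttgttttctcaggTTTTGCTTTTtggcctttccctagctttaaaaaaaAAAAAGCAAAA
Neat1, chr19:5824708-5824817: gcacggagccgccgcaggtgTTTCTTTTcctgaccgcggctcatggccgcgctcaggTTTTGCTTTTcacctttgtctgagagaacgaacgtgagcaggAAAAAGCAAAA
The element spans 84 nt in Malat1 and ends 292 nt before the annotated end of the transcript. It spans 90 nt in Neat1 and ends at the annotated end. The motifs were written down from these 2 RNAs, and of 30258 annotated lncRNA transcripts 2 (0.00661%) held all 3 in this order within 110 nt, those of Malat1 and Neat1.

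Miat, also known as Gomafu, is a neuronal nuclear RNA known for repeats of the letters of the intron branch point, which splicing factor SF1 binds. The longest Miat transcript held 6 copies of TACTAAC, or 0.655 per kb, and 3 of them stand in capitals in this window of exon 7 (minus strand, mm10):
Miat, chr5:112217316-112217465: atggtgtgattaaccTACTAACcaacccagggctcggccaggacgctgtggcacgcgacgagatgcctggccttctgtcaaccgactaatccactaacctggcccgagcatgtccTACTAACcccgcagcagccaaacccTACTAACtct
Among the 30258 lncRNA transcripts, 2.60% held at least 1 copy and 3 (0.00991%) held at least 6. Kcnq1ot1, with 93092 nt the longest member, held 4 copies, Neat1 held 1, and the longest transcripts of the other 7 members held none.

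The Dlk1-Dio3 RNAs are shown with microRNAs that lie inside them (RefSeq, GRCm38.p6), in RNA letters with the seed, bases 2 to 8, in capitals:
miR-770-5p, inside Meg3: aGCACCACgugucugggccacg
miR-770-3p, inside Meg3: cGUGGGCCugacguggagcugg
miR-370-3p, inside Rian: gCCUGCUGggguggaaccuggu
miR-134-5p, inside Mirg: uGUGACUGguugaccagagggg
miR-410-3p, inside Mirg: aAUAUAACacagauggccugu
The 5 seeds differ from each other. RefSeq placed 1 hairpin inside Meg3, 3 inside Rian and 14 inside Mirg, and 54 between the start of Meg3 and the end of Mirg. GENCODE placed 13 small nucleolar RNA (snoRNA) genes inside Rian and 2 inside Snhg11. The libraries measured the long host RNAs, and the small RNAs themselves were not measured.

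Promoters, 250 bases before to 50 bases after the annotated start, were listed in RefSeq for 7 of the 10 members. Each was searched on both strands for the cAMP-response letters TGACGTCA and their shorter core TGACG, the AP-1 letters TGANTCA, the CCAAT box and the heat shock letters GAANNTTC. Malat1, Meg3 and Kcnq1ot1 held the core or the full palindrome, and are printed with it and with CCAAT, in either orientation, in capitals:
Malat1, chr19:5802623-5802922, minus strand: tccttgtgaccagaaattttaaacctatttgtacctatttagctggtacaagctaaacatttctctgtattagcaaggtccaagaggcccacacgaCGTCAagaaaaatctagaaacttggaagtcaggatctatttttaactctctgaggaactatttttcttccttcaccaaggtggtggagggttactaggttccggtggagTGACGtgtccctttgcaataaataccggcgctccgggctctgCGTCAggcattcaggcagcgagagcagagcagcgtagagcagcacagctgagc
Meg3, chr12:109540746-109541045, plus strand: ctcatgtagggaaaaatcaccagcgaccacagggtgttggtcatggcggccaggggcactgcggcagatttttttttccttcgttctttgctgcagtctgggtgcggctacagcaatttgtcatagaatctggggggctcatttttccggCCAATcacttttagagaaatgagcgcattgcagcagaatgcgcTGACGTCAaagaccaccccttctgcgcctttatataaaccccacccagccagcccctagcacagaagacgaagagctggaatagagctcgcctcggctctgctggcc
Kcnq1ot1, chr7:143296498-143296797, minus strand: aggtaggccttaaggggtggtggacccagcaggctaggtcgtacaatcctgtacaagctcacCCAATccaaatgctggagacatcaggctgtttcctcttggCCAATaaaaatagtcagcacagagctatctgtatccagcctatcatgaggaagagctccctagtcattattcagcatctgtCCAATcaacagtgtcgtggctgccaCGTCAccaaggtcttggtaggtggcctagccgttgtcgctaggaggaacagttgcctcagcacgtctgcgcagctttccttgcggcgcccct
Malat1 held the core 3 times, Kcnq1ot1 held it 1 time beside 3 CCAAT boxes, and Meg3 held 1 full palindrome, which reads as the core on both strands, and 1 CCAAT box. Of 32851 mouse promoters of the same length, 1.79% held TGACGTCA, 20.8% held TGACG, 37.4% held CCAAT, 7.81% held TGANTCA and 7.86% held GAANNTTC. The windows of Rian and Mirg held 1 GAANNTTC and 1 CCAAT, the Mirg window being 5217 nt from the GENCODE start of the gene, and TGANTCA was in none of the 7. These matches describe letters and not bound sites.

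Values are FPKM, fragments per kilobase of transcript and per M mapped fragments (M, 1000000), made by the authors. The estimated depth was 17.6 to 19.6 M fragments in morphine and 21.1 to 25.7 M in saline libraries. Summed FPKM was 720234 to 741145 in morphine and 662470 to 670280 in saline libraries. The lumbar Hox genes were alike (summed 194 to 239 FPKM in morphine and 206 to 253 in saline), and brain and choroid plexus markers were near 0 in sum (3.63 to 4.78 FPKM in morphine and 3.78 to 5.36 in saline, nearly all of it Neurod6). Markers of motor neurons, the large ventral horn cells that drive muscle, split the libraries across groups. They summed to 105, 268 and 40.5 FPKM in morphine 1, 2 and 3, and to 254, 268 and 52.7 FPKM in saline 1, 2 and 3.

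No member passed the threshold of the test across all genes (limma on log2(FPKM + 1), Benjamini-Hochberg adjusted p under 0.05). The filter of at least 1 FPKM in at least 3 libraries left 9 of the 10 members, all but Kcnq1ot1. Among the 14614 genes tested, 138 (0.944%) were called higher in morphine and 82 (0.561%) lower, or 220 (1.51%) in either direction. Rescaling each library to the same total, as transcripts per M (TPM), turned that split into 101 higher and 853 lower and moved the median over all genes to -0.13 (log2), against -0.02 as deposited. Quantile normalization gave 47 higher and 55 lower.

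The members as a set are described here with the whole table beside them. All 3 morphine values lay above all 3 saline values for 3 of the 9 tested members, against 13.0% of tested genes, and the same held for Kcnq1ot1 against 9.08% of genes without the filter. No member had all morphine values below saline, against 15.7% of tested genes. The fitted log2 fold change was above 0 for 7 of 9 members, against 46.9% of tested genes, and Miat among these 7 went to -0.08 under TPM. The median of the 9 was 0.27, against -0.02 over all tested genes, and under TPM it was 0.15 against -0.13. An unadjusted p under 0.05 was reached by 3 of 9, against 11.2% of tested genes upward and 11.1% downward. The upward lean was not particular to these members. Of 779 other annotated lncRNA genes tested, a list added after seeing the data, 69.1% were fitted above 0 (median 0.12). All morphine values lay above saline for 19.5% of them and below for 5.91%.

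**Figure D1:**
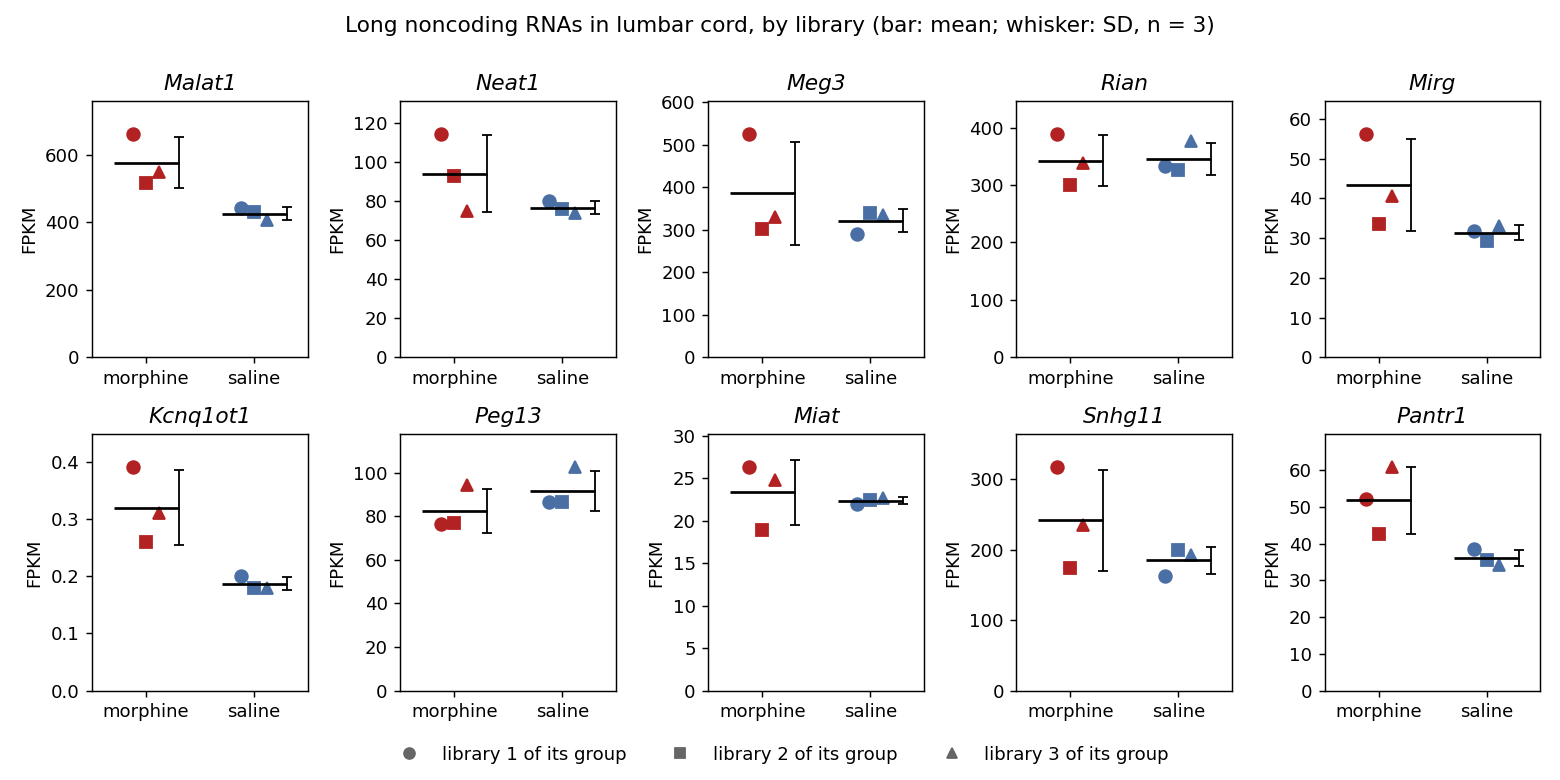
FPKM of the 10 members (y axis, from 0, one scale per gene) in the morphine and saline libraries (x axis). Points are libraries, bars are means and whiskers are SD (n = 3); Malat1, Mirg, Kcnq1ot1 and Pantr1 have every morphine point above every saline point, and morphine 1 is the highest morphine library in 8 of the 10 panels.

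In saline cord the members ran from 426 ± 18.5 FPKM for Malat1 to 0.187 ± 0.0115 FPKM for Kcnq1ot1 (SD, n = 3). Malat1 stood above Rian (345 ± 27.6) and Meg3 (321 ± 27.4), whose libraries overlapped each other. Snhg11 followed at 163.14 to 199.16, and then came Peg13 (91.7 ± 9.25) and Neat1 (76.5 ± 3.27). Pantr1 (36.1 ± 2.15), Mirg (31.4 ± 1.96) and Miat (22.4 ± 0.373) formed the lower end above 1 FPKM, with no overlap between them. Malat1 ranked 2nd, Meg3 5th and Rian 6th by mean FPKM over the 6 libraries among the 8931 annotated lncRNA genes in the table. Kcnq1ot1 ranked 1648th there, so by this length-scaled measure it was not abundant.

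Malat1 (ENSMUSG00000092341) lies on chromosome 19 at 5795690 to 5802672, minus strand, with 4 annotated transcripts of 485 to 6983 nt. It stood at 662.37, 518.24 and 550.34 FPKM in morphine, against 441.54, 431.66 and 405.75 FPKM in saline. Every morphine library was above every saline library, and morphine 1 was the highest. The means were 577 ± 75.7 and 426 ± 18.5 FPKM (SD, n = 3 each), a ratio of 1.35. The log2 fold change was 0.43 (SE 0.09, 95% interval 0.21 to 0.65) with adjusted p = 0.0644, outside the threshold, and the exact permutation p was 0.1, the smallest that 3 against 3 libraries can give. Without morphine 2 it was 0.50 with adjusted p = 0.0396, and without morphine 1 it was 0.33 with adjusted p = 0.154. As a share of all FPKM in a library, Malat1 took 0.0894%, 0.0718% and 0.0764% in morphine, against 0.0665%, 0.0644% and 0.0612% in saline (exact permutation p = 0.1), so the groups stayed apart when each library was set to its own total.

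Neat1 (ENSMUSG00000092274), the neighbour of Malat1 at 5824708 to 5845478, minus strand, has transcripts from 711 nt up to the paraspeckle-forming RNA of 20771 nt. It measured 114.18, 92.75 and 74.65 FPKM in morphine, against 80.03, 75.78 and 73.60 FPKM in saline. Morphine 3 lay among the saline values, so the groups overlapped, and the difference came from morphine 1 and 2. Its log2 fold change was 0.27 (SE 0.14, 95% interval -0.06 to 0.61) with adjusted p = 0.309. The table gives 1 value per gene, so short and long Neat1 forms cannot be told apart. The log2 ratio of Neat1 to Malat1 within a library was -2.54, -2.48 and -2.88 in morphine, against -2.46, -2.51 and -2.46 in saline. The groups overlapped, with a mean difference of -0.155 (exact permutation p = 0.2, adjusted p = 0.3 over the 3 ratios compared), and without morphine 3 it was -0.0303.

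None of the 10 tested genes of the Malat1 and Neat1 region, these 2 included, passed the threshold. Among the others the log2 fold changes ran from -0.11 for Dpf2, a chromatin remodelling subunit, to 0.24 for Slc25a45, a mitochondrial carrier (adjusted p = 0.302 and 0.372). Frmd8, the gene upstream of Neat1, averaged 13.0 ± 3.45 FPKM in morphine and 13.8 ± 2.55 FPKM in saline (SD, n = 3 each). Ltbp3, Ehbp1l1, Tigd3 and Cdc42ep2 had log2 fold changes of 0.09, 0.09, 0.04 and 0.03.

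The protein partners of the 2 RNAs were also measured. Of 19 tested paraspeckle protein genes none was called, and their median log2 fold change was -0.01. Of 27 tested genes for speckle and splicing proteins none was called, with a median of 0.06, or -0.06 under TPM. Srrm2, a core protein of speckles, had the smallest p of that list, at 98.01, 69.57 and 92.88 FPKM in morphine and 69.03, 65.52 and 67.10 FPKM in saline (log2 fold change 0.35, adjusted p = 0.161). Its groups did not overlap, although morphine 2 stood within 1 FPKM of saline 1. Son, the other speckle scaffold, had a log2 fold change of 0.13 (adjusted p = 0.309). In the paraspeckle list the smallest p belonged to Fam98a (-0.19, adjusted p = 0.194) and Ewsr1 (0.25, adjusted p = 0.234), both RNA-binding proteins. Of 22 tested genes of nuclear RNA decay none was called (median 0.07, or -0.06 under TPM), and the exosome subunit Exosc3 (0.25, adjusted p = 0.127) and the nuclear poly(A)-binding protein Pabpn1 (0.27, adjusted p = 0.132) had its smallest p.

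**Figure D2:**
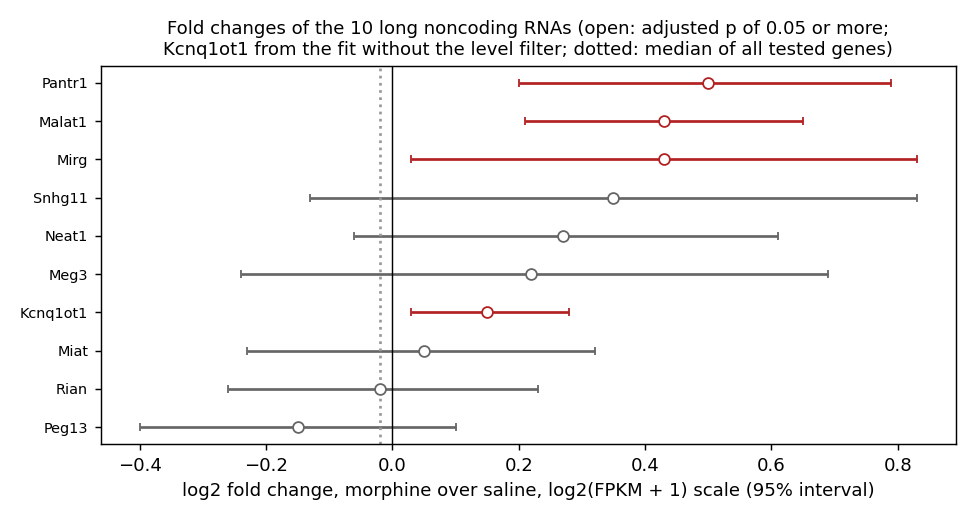
Log2 fold change, morphine over saline, of each member (x axis, log2(FPKM + 1) scale) with its 95% interval, ordered by size down the page. The points run from 0.50 for Pantr1 to -0.15 for Peg13, the dotted line marks the median of all tested genes at -0.02, red marks members whose groups do not overlap, and open points mark an adjusted p of 0.05 or more.

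At the Dlk1-Dio3 locus on chromosome 12, Meg3, Rian and Mirg are transcribed in the same direction one after the other. Meg3 (ENSMUSG00000021268, 109541001 to 109571726, plus strand, 11 transcripts) carries the start of the maternal RNA. It measured 525.28, 301.9 and 329.7 FPKM in morphine, against 289.49, 338.52 and 335.14 FPKM in saline. Morphine 1 alone was above the other libraries, and morphine 2 and 3 lay inside the saline range. For Meg3 the log2 fold change was 0.22 (SE 0.20, 95% interval -0.24 to 0.69) with adjusted p = 0.544, and it was -0.02 without morphine 1.

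Rian (ENSMUSG00000097451, 109603940 to 109661716, plus strand, 20 transcripts), the snoRNA-carrying stretch, measured 388.86, 300.4 and 337.53 FPKM in morphine, against 332.76, 325.31 and 376.34 FPKM in saline. The groups overlapped over nearly their whole range, and the means were 342 ± 44.4 and 345 ± 27.6 FPKM (SD, n = 3 each). The log2 fold change was -0.02 (SE 0.10, 95% interval -0.26 to 0.23) with adjusted p = 0.943. Its sign turned under several other settings, to at most 0.07.

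Mirg (ENSMUSG00000097391, 109729764 to 109749460, plus strand, 12 transcripts), the host of many microRNAs of the locus, measured 56.25, 33.61 and 40.61 FPKM in morphine. In saline it measured 31.83, 29.23 and 33.08 FPKM. All morphine values were above all saline values, but morphine 2 passed saline 3 by less than 1 FPKM. The ratio of means was 1.39 and the log2 fold change 0.43 (SE 0.17, 95% interval 0.03 to 0.83), with adjusted p = 0.203 and exact permutation p = 0.1. Without morphine 1 the log2 fold change was 0.23, and without morphine 2 it was 0.59.

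Ratios within a library set the 3 RNAs against each other whatever the scaling. The log2 ratio of Rian to Meg3 was -0.434, -0.00719 and 0.0339 in morphine, against 0.201, -0.0574 and 0.167 in saline. Morphine 1 was apart from the other libraries, and the mean difference of -0.239 became -0.0903 without it (exact permutation p = 0.3, adjusted p = 0.3). The log2 ratio of Mirg to Meg3 was -3.22, -3.17 and -3.02 in morphine, against -3.19, -3.53 and -3.34 in saline. The groups overlapped there as well (difference 0.216, exact permutation p = 0.2, adjusted p = 0.3). Together the 3 RNAs took 0.131%, 0.0881% and 0.0983% of summed FPKM in morphine, against 0.0984%, 0.103% and 0.112% in saline (exact permutation p = 1.0).

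Of the 7 tested genes of this locus none was called, and their median log2 fold change was 0.15, or 0.02 under TPM. Dlk1, the paternally expressed Notch-like protein at one end, measured 15.23, 12.55 and 14.93 FPKM in morphine and 10.54, 11.71 and 11.84 FPKM in saline. Its groups did not overlap, at a log2 fold change of 0.30 (SE 0.09) with adjusted p = 0.123. Rtl1, a paternal retrotransposon-derived gene with an antisense RNA on the maternal chromosome, averaged 1.46 ± 0.428 and 1.31 ± 0.165 FPKM (log2 fold change 0.08). Dio3, the deiodinase gene at the other end, was listed at 0 FPKM in all morphine libraries and at 0.04 FPKM in all saline libraries. Dio3 was under the filter, and values this low rest on very few fragments, with the morphine libraries estimated as less deep. The fit without the filter gave it a log2 fold change of -0.06 (adjusted p = 0.321). Begain and Wdr25, beyond Dlk1, had log2 fold changes of 0.15 and -0.07.

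Kcnq1ot1 (ENSMUSG00000101609) is the paternally expressed RNA whose transcription silences neighbouring genes in cis. It runs as 1 unspliced transcript on chromosome 7 at 143203458 to 143296549, minus strand, inside the gene Kcnq1 on the plus strand. It measured 0.39, 0.26 and 0.31 FPKM in morphine, against 0.20, 0.18 and 0.18 FPKM in saline. All morphine libraries were above all saline libraries, and the ratio of means was 1.71. Because the transcript is so long, these low values stand for an estimated 708, 425 and 528 fragments in morphine and 395, 429 and 353 fragments in saline. The 95% Poisson intervals, which cover counting error only, were 657 to 762, 386 to 467 and 484 to 575 in morphine, and 357 to 436, 389 to 472 and 317 to 392 in saline. Whether counting used strand is not stated in the sources used here, so fragments from Kcnq1 on the opposite strand may be among these.

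The log2 fold change of Kcnq1ot1 was 0.15 (SE 0.05, 95% interval 0.03 to 0.28) in the fit without the filter, with adjusted p = 0.251 and exact permutation p = 0.1. That fit called 8 of 28021 genes (0.0286%). The added 1 FPKM shrinks the change of a gene at this level, and with 0.01 FPKM added instead, a value chosen after seeing the data, it was 0.73 (SE 0.41) with adjusted p = 0.484. Kcnq1, whose exons share 121 nt with Kcnq1ot1, measured 0.07, 0.14 and 0.08 FPKM in morphine and 0.07, 0.15 and 0.08 FPKM in saline, so its groups overlapped. Of the 5 tested genes of the cluster none was called. Cdkn1c, an imprinted inhibitor of the cell cycle, averaged 44.0 ± 8.11 FPKM in morphine and 41.8 ± 13.2 FPKM in saline. Cars, a tRNA synthetase gene, and Tssc4 did not overlap between groups and had log2 fold changes of 0.29 (adjusted p = 0.162) and 0.21 (adjusted p = 0.109), while Cd81 stood at 0.13 and Nap1l4 at -0.04.

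Peg13 (ENSMUSG00000106847) is a paternally expressed RNA of 4725 nt on chromosome 15 at 72805600 to 72810324, minus strand, within an intron of Trappc9 on the same strand. It measured 76.21, 76.94 and 94.11 FPKM in morphine, against 86.32, 86.34 and 102.36 FPKM in saline. In each group library 3 was the highest, and morphine 3 lay among the saline values. Peg13 had a log2 fold change of -0.15 (SE 0.11, 95% interval -0.40 to 0.10) with adjusted p = 0.434, and it was -0.07 without saline 3, -0.25 without morphine 3 and -0.28 under TPM. Peg13 and Rian were the only members fitted below 0.

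Next to Peg13 stood the one called gene of the imprinted clusters. Kcnk9, a maternally expressed gene for the two-pore potassium channel TASK3, measured 0.56, 2.14 and 0.87 FPKM in morphine, against 7.36, 5.03 and 5.80 FPKM in saline. It fell in morphine, with no overlap, to a mean of 1.19 ± 0.837 FPKM, against 6.06 ± 1.19 FPKM in saline (SD, n = 3 each). For Kcnk9 the log2 fold change was -1.74 (SE 0.26, 95% interval -2.36 to -1.12) with adjusted p = 0.0456. That call sat close to the threshold: it was kept in 3 of 10 other settings and in 1 of 6 fits that left out a library, the one without morphine 2, while the log2 fold change stayed between -2.43 and -1.53. Trappc9, the host gene, averaged 16.7 ± 0.962 and 17.0 ± 0.295 FPKM (log2 fold change -0.02). Chrac1, a histone-fold protein gene, measured 26.45, 23.06 and 24.70 FPKM in morphine and 15.93, 17.63 and 19.46 FPKM in saline, without overlap (0.47, adjusted p = 0.0547). Ago2, the Argonaute gene, and Ptk2, a focal adhesion kinase gene, had log2 fold changes of -0.10 and -0.11.

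**Figure D3:**
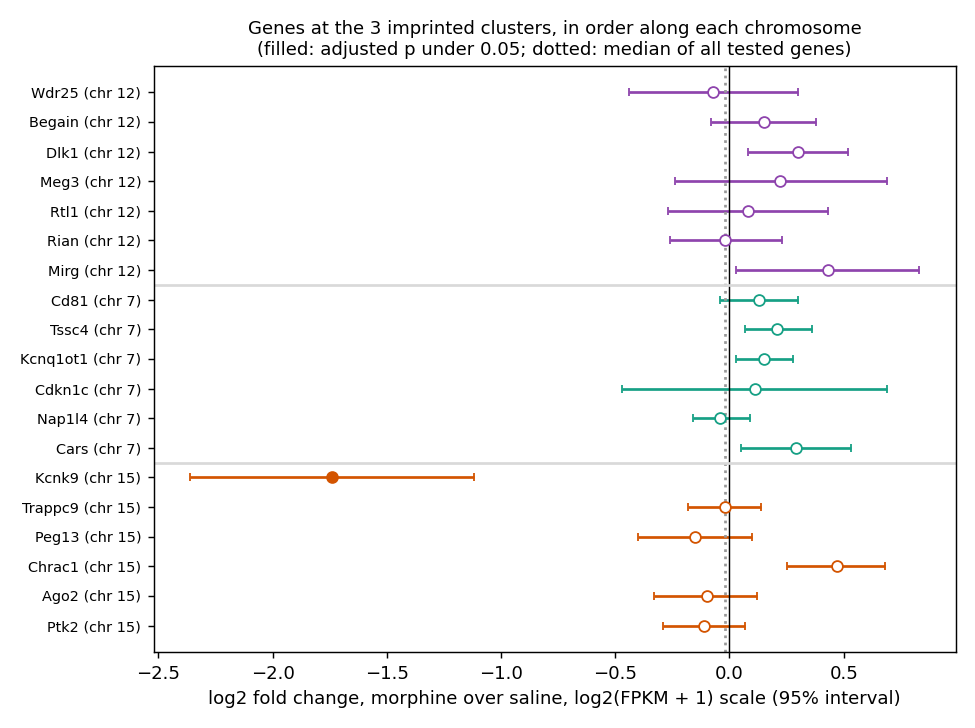
Log2 fold change, morphine over saline, with 95% interval (x axis, log2(FPKM + 1) scale) of the tested genes and Kcnq1ot1 at the imprinted clusters of chromosomes 12, 7 and 15, in chromosome order down the page. Filled points have an adjusted p under 0.05; Kcnk9 at -1.74 is the filled one, and the 3 lncRNAs of chromosome 12 lie between -0.02 and 0.43.

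Pantr1 (ENSMUSG00000060424, chromosome 1, 42590782 to 42694842, minus strand, 12 transcripts) is transcribed away from Pou3f3, a neural POU-domain factor gene. It measured 52.12, 42.47 and 60.70 FPKM in morphine, against 38.44, 35.60 and 34.23 FPKM in saline. Every morphine library was above every saline library, and here morphine 3 was the highest. The means were 51.8 ± 9.12 and 36.1 ± 2.15 FPKM (SD, n = 3 each), a ratio of 1.43. The log2 fold change was 0.50 (SE 0.13, 95% interval 0.20 to 0.79) with adjusted p = 0.0819 and exact permutation p = 0.1, and without morphine 2 it was 0.63 with adjusted p = 0.0318.

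Pou3f3 itself, whose start lies beside that of Pantr1, averaged 12.8 ± 0.543 FPKM in morphine and 13.2 ± 0.514 FPKM in saline (log2 fold change -0.05, adjusted p = 0.729). Mrps9, a mitochondrial ribosomal protein gene of the region, had no overlap between groups at 32.6 ± 0.944 and 25.5 ± 1.25 FPKM (0.34, adjusted p = 0.0506). Gpr45 and Tgfbrap1 had log2 fold changes of -0.15 and -0.16, so none of the 5 genes was called.

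Miat (ENSMUSG00000097767, chromosome 5, 112213228 to 112229395, minus strand, 6 transcripts) measured 26.29, 18.98 and 24.78 FPKM in morphine, against 21.99, 22.44 and 22.73 FPKM in saline. The morphine libraries lay on both sides of the narrow saline range. Miat had a log2 fold change of 0.05 (SE 0.12, 95% interval -0.23 to 0.32) with adjusted p = 0.847. An opposite-strand gene, Gm26953, covers 24.3% of the exonic length of Miat, and the sources used here do not state whether counting used strand.

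Snhg11 (ENSMUSG00000044349, chromosome 2, 158375638 to 158386145, plus strand, 5 transcripts) is a neuronal snoRNA host gene that GENCODE M21 annotates as protein-coding. It measured 316.51, 173.7 and 235.3 FPKM in morphine, against 163.14, 199.16 and 191.73 FPKM in saline. Morphine 1 and 3 lay above all saline libraries and morphine 2 below all but saline 1, so the groups overlapped. Snhg11 had a log2 fold change of 0.35 (SE 0.20, 95% interval -0.13 to 0.83) with adjusted p = 0.354, and without morphine 1 it was 0.14.

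SnoRNA host genes as a list were also counted. Their spliced RNAs are mostly by-products of introns that carry the small RNAs that guide ribosomal RNA modification. Of 18 tested host genes 4 were called higher in morphine (22.2%, against 0.944% of all tested genes) and none lower, and 16 (88.9%, against 46.9%) were fitted above 0. The 4 were Gas5, Snhg8, Snhg3 and Zfas1. Gas5, a growth-arrest RNA, measured 279.63, 238.57 and 241.56 FPKM in morphine, against 187.66, 182.99 and 195.87 FPKM in saline (log2 fold change 0.42, SE 0.07, adjusted p = 0.0488).

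Snhg3 measured 46.43, 44.71 and 46.02 FPKM in morphine, against 33.55, 34.72 and 31.74 FPKM in saline (0.45, SE 0.06, adjusted p = 0.0434). Snhg8 averaged 91.2 ± 8.86 and 65.4 ± 3.07 FPKM (0.47, adjusted p = 0.0485), and Zfas1 averaged 48.9 ± 2.61 and 34.5 ± 2.48 FPKM (0.49, adjusted p = 0.0456). None of the 4 overlapped between groups. Snhg15 was the host gene with all morphine values below saline (-0.27, adjusted p = 0.188). The median of the 18 was 0.28, and 0.16 under TPM against -0.13 for all genes. The count was 0 without saline 1, 2 or 3 and without morphine 1 or 3, fits that called 1 to 8 genes in all, and 5 without morphine 2. Over these 6 fits the log2 fold change was 0.41 to 0.47 for Snhg3, 0.45 to 0.55 for Zfas1, 0.41 to 0.55 for Snhg8 and 0.35 to 0.46 for Gas5.

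**Figure D4:**
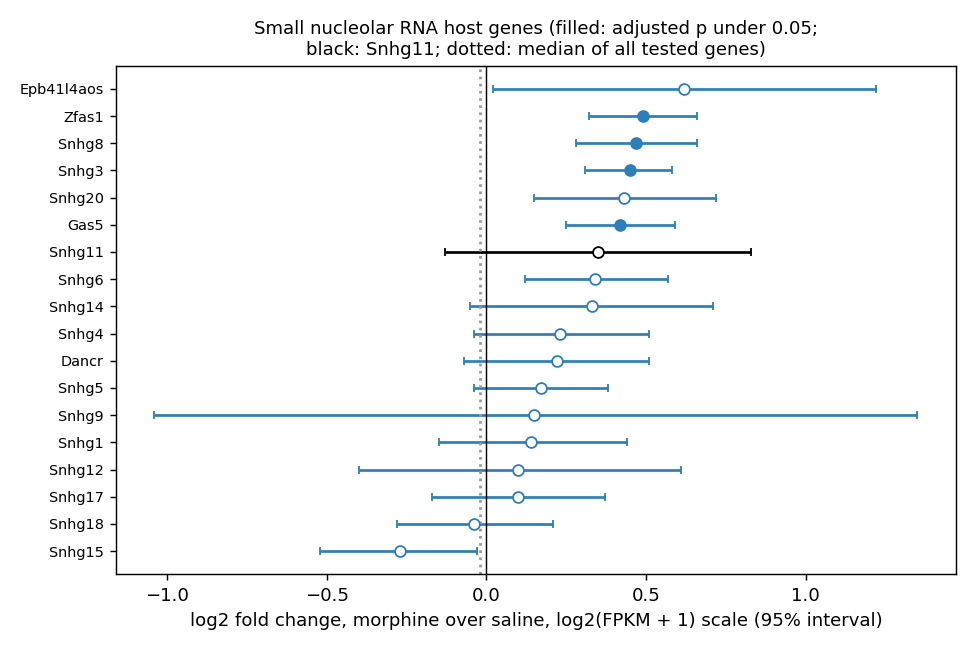
Log2 fold change, morphine over saline, with 95% interval (x axis, log2(FPKM + 1) scale) of the 18 tested snoRNA host genes, ordered by size down the page. Filled points have an adjusted p under 0.05 (Zfas1, Snhg8, Snhg3 and Gas5, between 0.42 and 0.49), and Snhg11 is drawn in black at 0.35.

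The members also varied among themselves by library. Morphine 1 was the highest morphine library for 8 of the 10 members, against 31.9% of tested genes, and morphine 2 was the lowest for 8, against 43.5%. The exceptions to the first were Peg13 and Pantr1, and to the second Neat1 and Peg13. The coefficient of variation was larger in morphine than in saline for all 10 members, at 12.3% to 31.6% against 1.67% to 10.3%, and for 59.1% of tested genes. Morphine 2 was also the morphine library with the highest motor neuron marker sum. This was not particular to motor neurons. Morphine 2 also had the highest morphine sums of oligodendrocyte (24014 FPKM) and astrocyte markers (2105 FPKM). The same held for the precursor, microglial, endothelial, meningeal and sensory lists. The neuron sum was also highest in morphine 2 (6734 FPKM), but its markers were mixed. Nefl, Nefm, Nefh, Tubb3 and Uchl1 were highest in morphine 2 among the morphine libraries. Stmn2, Map2 and Slc6a5 lay between. Snap25, Thy1, Eno2, Rbfox3, Slc17a6, Slc32a1, Gad1, Gad2, Syt1 and Gap43 were lowest there. Morphine 2 had the lowest sums of ependymal markers (21.9 FPKM), of lumbar Hox genes and of brain markers. It was between the others for red cell genes. With the motor neuron level as a covariate, Malat1 kept a log2 fold change of 0.43 (adjusted p = 0.0583), Pantr1 stood at 0.45 (adjusted p = 0.0746), and the median of the 10 members was 0.23 against 0.25 without it. The part of motor neurons in the values of single members was not tested further, and that of the other cell types was not tested. In bulk tissue, fewer cells of a type and less RNA per cell cannot be told apart.

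Summed over all 10, the members took 0.299%, 0.216% and 0.243% of all FPKM in morphine, against 0.224%, 0.230% and 0.238% in saline. Morphine 1 was the highest and morphine 2 the lowest of the 6 libraries, and the groups overlapped (difference 0.0221 percentage points, exact permutation p = 0.6). Without morphine 1 the difference was -0.00128.

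**Figure D5:**
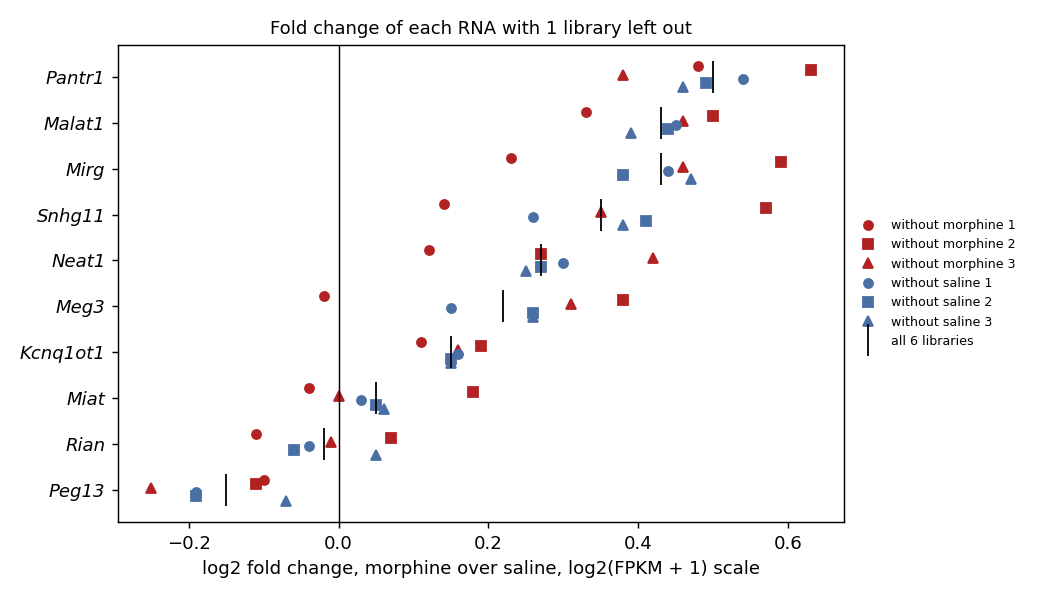
Log2 fold change, morphine over saline, of each member with 1 library left out (x axis, log2(FPKM + 1) scale; colours and shapes name the library, black ticks are all 6 libraries). Without morphine 1 the values of Mirg, Snhg11, Neat1 and Meg3 move left, to 0.23, 0.14, 0.12 and -0.02, while Pantr1 and Malat1 stay at or above 0.33 in every fit.

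The genes whose profile over the 6 libraries was most like each member were found by the root mean square difference of centred log2(FPKM + 1) values, a description with no test. For Malat1 these were Doc2g (0.036) and Cic (0.044), a transcriptional repressor. For Neat1 they were Caprin2 (0.026) and Babam2 (0.060), for Meg3 the splicing factor Rbm25 (0.073) and Fbxl12 (0.086), and for Mirg Camsap3 (0.057) and Ankrd17 (0.058). Rian was followed by Cfap74 (0.020) and Trim46 (0.027), Peg13 by Tspyl3 (0.026) and Shisa5 (0.032), and Kcnq1ot1 by Ccdc34 (0.015) and Ptges3 (0.019). The match of Kcnq1ot1 holds on this scale only, since the added 1 FPKM flattens a gene at its level. Its ratio of means was 1.71, while Ccdc34 and Ptges3, well above 1 FPKM, had log2 fold changes of 0.17 and 0.13. Doc2g, the closest match of Malat1, lay at 1.42 to 2.96 FPKM, where the added 1 FPKM flattens changes as well. Miat was closest to Slc35c2 (0.030) and Tmem17 (0.032), Pantr1 to Rpl28-ps1 (0.061) and Bphl (0.065). Snhg11 was closest to Nwd2 (0.057) and to Ftx (0.065), itself a lncRNA of the X-inactivation centre. Cic gives an example of the shape: 76.51, 59.39 and 63.53 FPKM in morphine and 52.77, 49.26 and 43.53 FPKM in saline, with morphine 1 highest as in Malat1.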

How the data were processed

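RNA from 3 morphine and 3 saline libraries was sequenced with a stranded kit, per the labels' protocols. The tools were RSEM, STAR, Trimmomatic and bcl2fastq 2.19.0 on mm10, per the submitters' processing notes; the sources used here do not give other versions, the annotation or the use of strand. The authors deposited FPKM values with 2 decimals, and no counts were used.

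The 14614 genes reaching 1 FPKM in 3 or more of the 6 libraries were compared on log2(FPKM + 1) with limma 3.58.1 (R 4.3.3, intensity trend, two-sided, Benjamini-Hochberg, threshold 0.05); Kcnq1ot1 was read from the fit without this filter. Such fold changes understate changes near 1 FPKM. Exact permutation tests were two-sided. Depth was estimated from the steps of low FPKM in genes of 1 transcript of 300 to 1500 nt, where 75.4% to 78.7% of values up to 6 fragments were within 0.05 of a whole number, or within the table's rounding where that is wider (12.7% to 16.3% for an even spread). Coordinates came from GENCODE M21 (GRCm38, as mm10), promoters and microRNAs from RefSeq GRCm38.p6. Python 3.11.15, NumPy 2.4.6, SciPy 1.17.1, pandas 2.3.3 and matplotlib 3.10.9 were used.

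The members and gene lists were chosen with earlier results of these data known. Named are all members, neighbours above 1 FPKM plus Dlk1, Rtl1 and Dio3, from other lists up to 4 called genes or the 2 with the smallest p, for cell types the 2 highest, and the 2 genes most like each member (some genes under this rule are not reported here); Kcnq1, Neurod6 and Snhg15 were named after their values were seen. The 18 neuron markers placed by their level in morphine 2 were also named after their values were seen. Other settings varied the filter, pseudocount, scaling, trend, length, replicate block, motor neuron covariate and each library.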

Additional observations from a re-analysis of the deposited data

How the results depend on the processing

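No member was called under any setting that kept all 6 libraries. Without morphine 2 the count of members called was 2, Malat1 and Pantr1, and leaving out 1 library gave 0 to 2. Over all genes the count of calls was 220. It was 8 without the filter, 954 under TPM, 958 when scaled by the total without the members, 102 with quantile normalization, 36 without the intensity trend, 30 with the length trend removed and 944 with the motor neuron level as covariate; leaving out 1 library gave 1 to 805, the highest without morphine 2. The replicate numbers were tried as a block. Deviations of same-numbered libraries correlated at -0.129, 0.161 and 0.295, against -0.341 to 0.238 for libraries of different number. With so few libraries these values cannot decide whether the numbers are pairs, and the main fit did not take them as pairs. The replicate block gave 24 calls over all genes, 0 among members and 0 among snoRNA host genes, and 11 calls over all genes together with the length trend removed. The count of snoRNA host genes called, 4 as reported and with the motor neuron covariate, was 2 with pseudocount 0.1, under TPM and with the total without the members, 1 with quantile normalization, and 0 without the filter, without the intensity trend, with the length trend removed (with or without the block); leaving out 1 library gave 0 to 5. The median log2 fold change of the 10 members, 0.25, lay between 0.12 and 0.33 without 1 library. The sign turned for Rian (0.07 with the length trend removed, with or without the block, and -0.11 to 0.07 without 1 library, 0.05 without saline 3), for Miat (-0.08 under TPM and with the total without the members, -0.01 with the motor neuron covariate, -0.04 to 0.18 without 1 library, 0.00 without morphine 3), for Meg3 (-0.02 to 0.38 without 1 library) and for the members' share of FPKM (-0.00128 to 0.0404 percentage points without 1 library). Under TPM the medians of the Malat1 and Neat1 neighbours (-0.03), of speckle proteins (-0.06) and of RNA decay genes (-0.06) were below 0. The cause was not tested, beyond the shift of all genes by TPM. Malat1, Neat1, Mirg, Kcnq1ot1, Snhg11, Pantr1 and Peg13 kept their sign in every setting run. The 2 decimals of the table limit Kcnq1ot1, whose values are rounded by 8.17 to 11.9 fragments either way, beside 353 to 708 fragments in all.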

Other observations

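Annotated lncRNA genes outside the 10 members were counted as a class, a list added after seeing the data. Of 779 tested, 24 (3.08%) were called higher in morphine and 4 (0.513%) lower, against 0.944% and 0.561% of all tested genes, and 538 (69.1%, against 46.9% of all tested genes) were fitted above 0. All morphine values lay above all saline values for 152 of them (19.5%, against 13.0% of all tested genes) and below for 46 (5.91%, against 15.7%). The median log2 fold change was 0.12, against -0.02 for all genes, and under TPM it was 0.03 against -0.13. Of 20 named lncRNAs tested, Gas5 was called and Mir9-3hg, host of a neural microRNA, came next (15.3 ± 1.03 FPKM in morphine, 11.7 ± 0.896 FPKM in saline, log2 fold change 0.36, adjusted p = 0.069).

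Of 32 other imprinted genes tested, none was called and the median log2 fold change was -0.04. The 2 with the smallest p lie at the Prader-Willi and Angelman locus. Snurf, expressed from the paternal chromosome, measured 172.77, 239.31 and 205.82 FPKM in morphine, against 265.29, 320.33 and 356.9 FPKM in saline (-0.61, adjusted p = 0.0741). Ube3a, a ubiquitin ligase gene whose paternal copy is silenced in neurons by the antisense transcript Snhg14, measured 38.0, 23.92 and 29.58 FPKM in morphine, against 20.16, 17.5 and 20.55 FPKM in saline (0.61, adjusted p = 0.0867). Neither overlapped between groups, and the pair differed in opposite directions. Snurf, however, is annotated as 1 transcript of 216 nt, near the estimated mean fragment length of 208 to 217 nt, so its FPKM is uncertain. Snrpn, whose gene spans Snurf on the same strand, averaged 435 ± 26.8 FPKM in morphine and 411 ± 24.9 FPKM in saline, with overlap (0.08, adjusted p = 0.521). Snhg14 measured 37.74, 29.07 and 28.93 FPKM in morphine, against 23.97, 31.07 and 20.92 FPKM in saline, with overlap (0.33, adjusted p = 0.278).

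Of the cell type lists, 18 neuron markers had no call (median -0.06), with Slc6a5, the glycine transporter of inhibitory neurons, at -0.57 (adjusted p = 0.0574) and Thy1 at 0.32 (adjusted p = 0.0709). The 8 tested motor neuron markers had no call either (median -0.60). The markers with the highest levels were Snap25 (1643 and 1618 FPKM on average in morphine and saline) and Nefm (574 and 776) for neurons, Calca (59.0 and 72.7) and Prph (28.0 and 39.2) for motor neurons, and Mbp (11301 and 10687) for oligodendrocytes. Oligodendrocyte markers summed to 17647 to 24014 FPKM in morphine and 15354 to 22460 FPKM in saline. The astrocyte factor gene Sox9 (7.84 ± 0.546 and 5.32 ± 0.129 FPKM, adjusted p = 0.0463) and the ependymal gene Ccdc153 (1.48 ± 0.308 and 0.24 ± 0.252 FPKM, adjusted p = 0.0488) were called higher in morphine. The globin gene Hbb-bt was called lower (27.9 ± 4.24 and 65.9 ± 14.7 FPKM, adjusted p = 0.0453). Of 10 other settings, Sox9 was called in 5, Ccdc153 in 3 and Hbb-bt in 8, and each was called in 1 of the 6 fits that left out a library. Of the 10 astrocyte markers 6 were fitted below 0 (median -0.06), against 7765 of the 14614 tested genes. Slc1a2 (-0.16), Aqp4 (-0.33) and Gja1 (-0.08) had all morphine values below saline, as did 15.7% of tested genes, without passing the threshold. Lower medians without any call were found for meninges and fibroblasts (-0.55), sensory neurons and Schwann cells (-0.41) and endothelium and pericytes (-0.30). In the endothelial list 9 of 10 markers were fitted below 0, against 7765 of the 14614 tested genes. All morphine values lay below saline for 5 of the 10, against 15.7% of tested genes. The smallest p was that of Pecam1 (3.25 ± 0.581 and 5.20 ± 0.101 FPKM, adjusted p = 0.0589). Of 5 red cell genes (median -0.84) 4 had all morphine values below saline, against 15.7% of tested genes. Their part in the lncRNA values was not tested.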
